A study of Capra hircus with 4 samples.

Results

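Nuclei with a stromal set of transcripts were selected from single-nucleus RNA sequencing of goat ovaries by a marker gate, and 473 of 48332 nuclei met it. A nucleus entered the gate if it had 500 or more unique molecular identifiers (UMIs, each 1 captured transcript), if at least 4 of 8 stromal genes had a UMI (the receptors PDGFRA and NR2F2, the transcription factors TCF21 and TSHZ2, the matrix genes DCN and LAMA2, and DMD and ABCA8), and if markers of neighbouring cell types stayed under a limit. At most 1 of the smooth muscle genes ACTA2, MYH11, TAGLN, CNN1, ACTG2, DES and LMOD1 and at most 3 of the matrix genes COL1A1, COL1A2, COL3A1, LUM, SPARC, FBLN1, FAP, COL5A2 and POSTN could have a UMI. None of FSHR, PECAM1 and PROX1 could. ABCA8 matched no feature name in the files, so 7 of the 8 stromal genes could be scored. The study compared polytocous Nubian goats with monotocous Du'an goats, 2 animals of each breed and 1 library per animal, taken from the left ovary. All 4 goats were about 3 years old and had been brought into estrus together with an intravaginal progesterone device (300 mg) worn for 17 days, and no further hormone that could cause superovulation was given. Breed and litter size were therefore the same contrast. No untreated goat is in the design. The gate held 112 of 9364 nuclei in Du'an goat 1, 53 of 10893 in Du'an goat 2, 129 of 16988 in Nubian goat 1 and 179 of 11087 in Nubian goat 2. These nuclei carried 305230, 239699, 248352 and 563045 UMIs, with medians of 1596.5, 3080, 1407 and 1468 UMIs per nucleus. All other nuclei of the same libraries had medians of 1934.5, 3384.5, 2416 and 2037.5 UMIs.

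The ovarian stroma fills the space between follicles and vessels with fibroblast-like and smooth muscle cells, lays down collagens and laminins, and supplies the cells that form the theca around a growing follicle. PDGFRA is a receptor for platelet-derived growth factors on mesenchymal cells, NR2F2 is an orphan nuclear receptor of mesenchymal and endothelial cells, and TCF21 is a transcription factor of fibroblast precursors. Granulosa cells signal to the surrounding stroma through Hedgehog ligands, which are received by PTCH1 and relayed by the GLI factors.

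The genes that chose the nuclei are described here without a test. Values for 4 goats are given in the order Du'an 1, Du'an 2, Nubian 1 and Nubian 2 throughout, as UMIs per 1000000 UMIs of the summed nuclei (CPM). PDGFRA was at 508, 409, 289.9 and 307 CPM in the gated nuclei and at 60.2, 33.6, 34.6 and 42.8 CPM in all other nuclei. NR2F2 was at 452, 242, 447 and 339 against 67.4, 37.2, 68.5 and 39.9 CPM. The small leucine-rich proteoglycan gene DCN was at 334, 113, 471 and 218 against 35.3, 18.2, 60.8 and 34.5 CPM. In each goat these 3 genes were far above the other nuclei, and Du'an goat 2 had the lowest NR2F2 and DCN. LAMA2, a laminin chain of basement membranes, was at 898, 859, 1240.2 and 927 CPM and DMD, which encodes dystrophin, at 849, 1477, 1880.4 and 1131 CPM. TSHZ2, a zinc finger transcription factor, was at 1478, 1961, 1603 and 1689 CPM in gated nuclei and at 639, 856, 427 and 784 CPM elsewhere, so it was abundant in many nuclei that the gate did not take. TCF21 was close to the detection limit, with 4, 1, 4 and 10 UMIs in the 4 sets of gated nuclei (13.1, 4.17, 16.1 and 17.8 CPM). Of the matrix genes that the gate allowed up to 3 of, COL5A2 was at 216, 146, 334 and 281 CPM and COL3A1 at 138, 129, 499 and 197 CPM. FSHR, PECAM1 and PROX1 were at 0 UMIs by rule, against 1562, 1909, 1466 and 994 CPM for FSHR in all other nuclei.

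**Figure D1:**
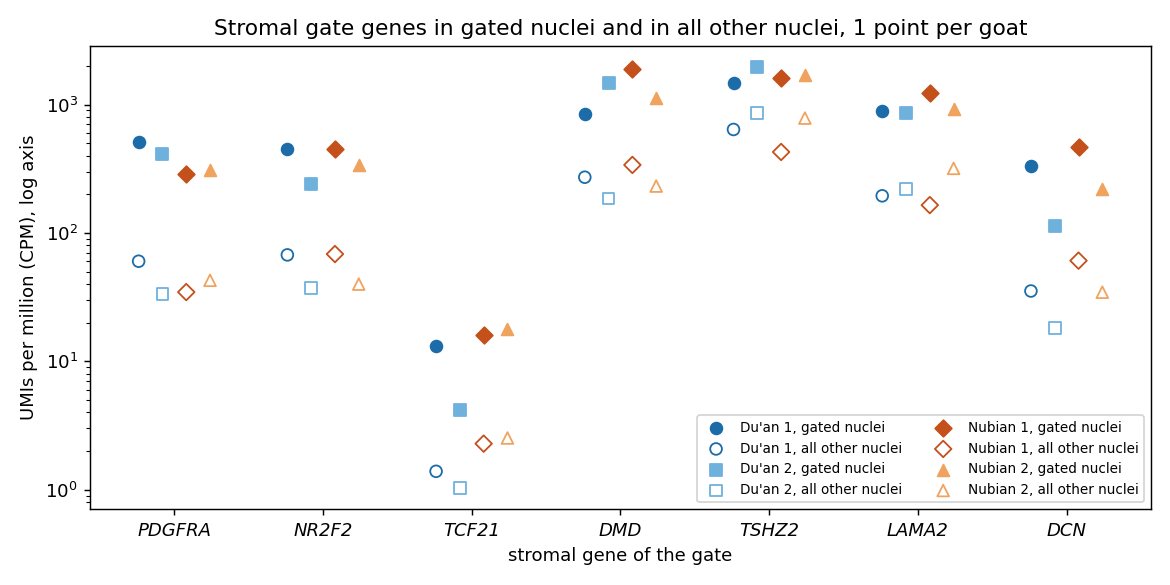
CPM (log axis) of the 7 scored stromal gate genes, with filled points for gated nuclei and open points for all other nuclei, 1 point per goat. Filled points lie above the open points of the same goat for all 7 genes, and TCF21 rests on at most 10 UMIs per goat.

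Most members met the rule with no gene to spare. Exactly 4 stromal genes were seen in 85, 50, 99 and 144 gated nuclei, and 5 or more in 27, 3, 30 and 35. Just outside the limit, 327, 189, 256 and 490 nuclei had 3 stromal genes and met every other condition, so the nuclei 1 gene short outnumbered the members in each goat. The commonest set of genes was NR2F2, DMD, TSHZ2 and LAMA2, in 112 nuclei, and it was the set of 26 of the 53 nuclei of Du'an goat 2. DMD, TSHZ2, LAMA2 and DCN made up the next set, in 62 nuclei. At the contractile limit, 56, 15, 80 and 80 members had 1 smooth muscle gene and 53, 13, 72 and 59 nuclei were left out because they had 2. FSHR, PECAM1 or PROX1 stopped 152, 196, 174 and 174 otherwise matching nuclei, which were deep, with medians of 4709, 8750.5, 2763 and 6569.5 UMIs. The stromal genes were not confined to stroma: 4 or more of them were seen in 4.55%, 1.52%, 6.47% and 2.52% of T cell nuclei, 5.61%, 7.97%, 13% and 13.8% of endothelial nuclei and 4.08%, 4.16%, 4.89% and 3.96% of granulosa nuclei. The median depths of these whole classes were 3386.5, 2545, 3095 and 3147.5 UMIs for T cells, 3631 to 5756 for endothelial nuclei and 4246.5 to 6524 for granulosa nuclei, above the stromal gate of the same goat except for T cells in Du'an goat 2.

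The gated nuclei were checked against markers of other ovarian cell types. Macrophage markers summed to 39.3, 45.9, 84.6 and 56.8 CPM in gated nuclei and 408, 1065, 379 and 2039 CPM elsewhere, and all 9 were below the other nuclei in every goat. T and natural killer cell markers summed to 49.1, 138, 72.5 and 133 CPM against 131, 849.6, 222 and 320.2 CPM. Immune transcripts were thus low in the gate in all 4 goats. Granulosa markers differed among the goats: the list of 14 genes summed to 904, 2837, 3060.2 and 1138 CPM, against 3373, 7315, 11290.3 and 3567 CPM elsewhere, where FSHR, at 0 in the gate by rule, is part of the sum, and its most abundant member in Du'an goat 2 and Nubian goat 1 was the protease inhibitor gene SERPINE2. FOXL2, the granulosa transcription factor, had 2 UMIs in gated nuclei of Du'an goat 2 and 0 in the other 3 goats. At least 3 granulosa markers were seen in 7, 30, 80 and 25 nuclei, that is in 30 of 53 nuclei of Du'an goat 2 and 80 of 129 of Nubian goat 1. Endothelial markers summed to 305, 1272, 479 and 305 CPM against 638, 895, 659 and 461 CPM elsewhere, where PECAM1 and PROX1, at 0 in the gate by rule, are part of the sum. The gate was the higher in Du'an goat 2, where VWF, the endothelial clotting protein, led with 112 UMIs. Epithelial markers were at 32.8, 138, 16.1 and 421 CPM against 19.8, 64.3, 11.3 and 79.7 CPM elsewhere, higher in the gate in every goat, with EPCAM leading in Nubian goat 2 at 83 UMIs. Of the steroid pathway, LHCGR, the luteinizing hormone receptor, was at 88.5, 1281, 443 and 215 CPM, STAR at 0, 8.34, 8.05 and 3.55 CPM and the side-chain cleavage enzyme gene CYP11A1 at 42.6, 108, 96.6 and 112 CPM. In all, 10, 38, 82 and 36 members carried 3 or more markers of another class. Droplets with 2 nuclei and free RNA were not modelled, and their part in these values was not tested. Barcodes shared between libraries were found in 2, 0, 0 and 2 members. At least 1 granulosa marker had a UMI in 63.4%, 88.7%, 98.4% and 68.2% of members, so the set is called the stromal gate here.

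Depth split the members. Only 24 gated nuclei exceeded 10000 UMIs (5, 7, 1 and 11 per goat), but they held 36.2%, 40.4%, 4.10% and 39.6% of the UMIs summed for each goat. This limit was chosen after the data were seen, and the values are given as a description. In nuclei up to 10000 UMIs the osteogenic transcription factor RUNX2 was at 1032, 392, 1012 and 1851 CPM, while in the deeper nuclei of Du'an goats 1 and 2 and Nubian goat 2 it was at 9476, 4157 and 4307 CPM. ENPP1, which makes pyrophosphate, was at 149, 91.1, 134 and 573 CPM below the limit and 7737, 371 and 1729 CPM above it in these 3 goats. ANKH, a pyrophosphate transporter, was at 267, 70.0, 105 and 376 CPM below and 6967, 196 and 1450.5 CPM above. The deep nuclei of Du'an goat 1 thus had levels of these genes many times those of its other members. The paper reports IGFBP5 as abundant in common progenitor granulosa cells. With IGFBP5, the genes summed to 24514, 5457 and 8415 CPM in deep nuclei of these 3 goats and 1724, 700 and 3493 CPM in the others. Most of each sum came from RUNX2, ENPP1 and ANKH, and IGFBP5 was at 298, 384, 330 and 787 CPM with all members together. The paper does not name RUNX2, ENPP1 or ANKH for common progenitor granulosa cells. Whether the deep members belong to such a granulosa class was not tested. Markers of other cell types differed with depth as well, some higher and some lower. In Du'an goats 1 and 2 and Nubian goat 2, granulosa markers summed to 1468, 3982 and 1064 CPM in deep nuclei against 585, 2059 and 1187 CPM in the others, and epithelial markers to 45.3, 309 and 997 against 25.7, 21.0 and 44.1 CPM. Immediate early and stress genes summed to 408, 774 and 3768 against 1129, 658 and 746 CPM. Endothelial markers were at 172, 319.8 and 364 against 379.8, 1919 and 267 CPM, lower in the deep nuclei of both Du'an goats, and cycling markers at 0, 10.3 and 18.0 against 179.6, 49.0 and 358 CPM, lower in all 3 goats. Macrophage markers were at 9.06, 30.9 and 13.5 against 56.5, 56.0 and 85.2 CPM. Their part in the levels of RUNX2, ENPP1 and ANKH was not tested. With all members together RUNX2 was at 4085, 1915, 970.4 and 2822 CPM. Some single transcripts, chosen after their values were seen, were lower in the deep nuclei. For the gate genes LAMA2, DCN and NR2F2 the rule itself sets this in part, since the single UMI it asks for is a higher level in a shallow nucleus than in a deep one. LAMA2 was at 1370.3, 1268, 1276 and 1439.7 CPM below the limit and 63.4, 258 and 144 CPM above it, and DLC1, a GTPase-activating protein gene, at 939, 883, 1067 and 1052 against 9.06, 289 and 193 CPM. DCN had 358 UMIs below and 11 above, NR2F2 456 and 42, and COL6A3, a chain of collagen VI, 222 and 3. The lipid transporter gene ABCA6 and the WNT agonist gene RSPO3 had 127 and 191 UMIs in nuclei up to 10000 UMIs and 0 UMIs in the 24 deep nuclei, although the deep nuclei held 440203 of the 1356326 UMIs. TSHZ2 (1524, 2178, 1667 and 1654 against 1395, 1640.2 and 1742 CPM) did not show this loss, and PDGFRA was at 431, 126, 302 and 367 against 643, 825 and 216 CPM. Whole lists did not all follow these genes. In Du'an goats 1 and 2 and Nubian goat 2, nuclear receptors summed to 2555, 2496 and 2789 CPM in deep nuclei against 6759, 3789.6 and 5377 CPM in the others, and Hedgehog genes to 525, 444 and 418 against 1596, 981 and 1119 CPM. Interstitial matrix genes summed to 4086, 2609.9 and 1343 against 4670.4, 3418 and 3467 CPM. These 3 lists were lower in the deep nuclei of each of the 3 goats, least so the matrix of Du'an goat 1. Mesenchymal transcription factors were about as high (9322, 9893 and 9475 against 10993, 9772 and 10721 CPM), and fibroblast genes outside the gate were higher in the deep nuclei (7075, 3404 and 4262 against 2956, 2829.9 and 3681 CPM). The single deep nucleus of Nubian goat 1 had 385815 CPM of mitochondrially encoded transcripts.

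**Figure D2:**
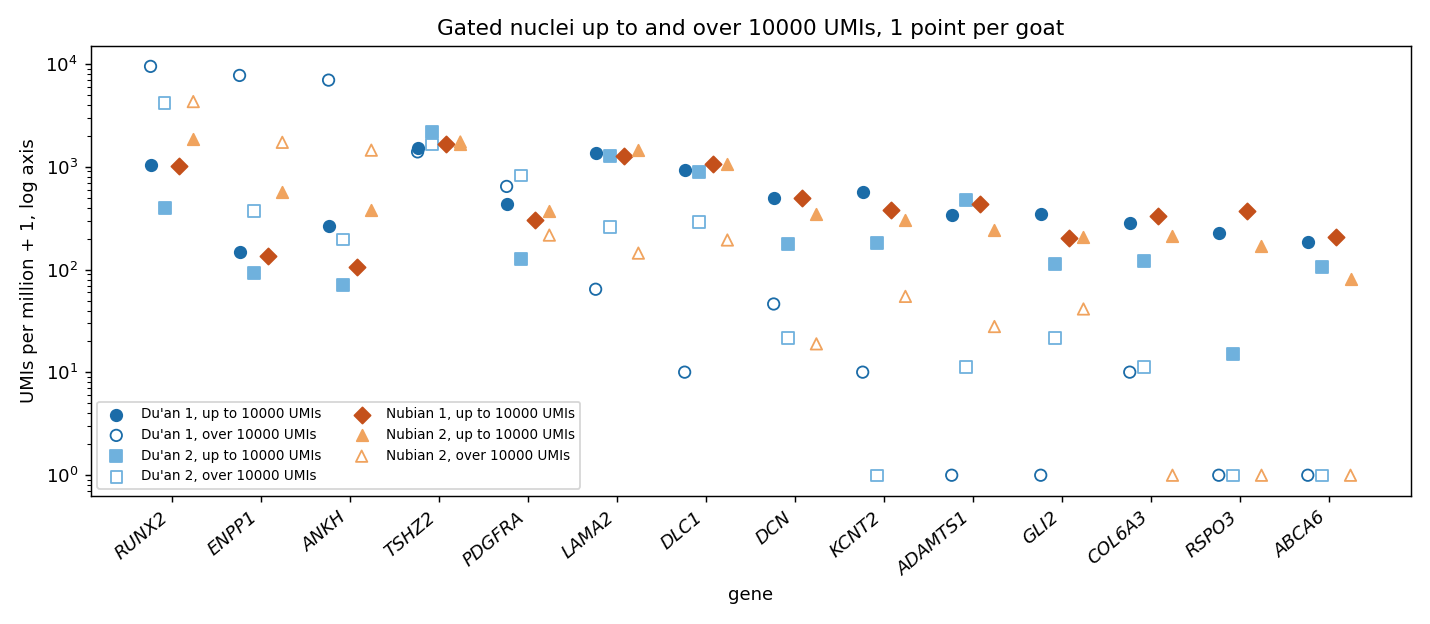
CPM + 1 (log axis) of 14 genes in gated nuclei up to 10000 UMIs (filled) and over 10000 UMIs (open), 1 point per goat, without the 1 deep nucleus of Nubian goat 1. RUNX2, ENPP1 and ANKH have their highest points in the deep nuclei of Du'an goat 1, while ABCA6 and RSPO3 are at 0 UMIs in all deep nuclei.

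Among nuclei up to 10000 UMIs, 347 had a UMI of PDGFRA, TCF21 or DCN and 102 had none of these and met the gate on NR2F2, DMD, TSHZ2 and LAMA2. The 102 nuclei numbered 20, 22, 20 and 40 per goat. COL6A3 was at 315, 264, 361 and 275 CPM in the former and 139, 0, 180.2 and 33.5 CPM in the latter, lower in every goat. Theca gate genes were higher in the 102 nuclei in every goat, at 529, 2104, 1982 and 716 CPM against 497, 730.4, 274 and 371 CPM, and endothelial markers were at 389.7, 3073, 383 and 369 against 378, 513, 526 and 231 CPM, with Du'an goat 2 far above the others. Their part in the difference was not tested. DLC1 was at 1069.7, 1041, 1079 and 1128 and 362, 752, 1013 and 839 CPM.

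Compared with all other nuclei, 1366 of 6677 genes at 20 CPM or more (20.5%) were higher in the gated nuclei of every goat and 929 (13.9%) were lower. This contrast was used by the rule and has no test. Among the genes furthest above were SLC7A11, the cystine transporter, at 170.4, 284, 109 and 394 CPM against 35.2, 13.2, 19.2 and 59.5 CPM, and GLI2, the Hedgehog transcription factor, at 223, 75.1, 193 and 142 against 31.5, 14.2, 33.5 and 29.2 CPM. KCNT2, a potassium channel gene, was at 367, 108, 370.4 and 206 CPM, the transcription factor gene SOX6 at 498, 329.6, 278 and 558 CPM and SMOC2, a matricellular protein gene, at 75.4, 29.2, 105 and 85.3 CPM, all above the other nuclei in every goat. DLC1 was at 603, 642, 1023 and 712 against 158, 88.0, 190.3 and 134 CPM. Genes below the other nuclei in every goat included CHST8 (13.1, 37.5, 20.1 and 17.8 against 149, 172, 209 and 148 CPM), FST, the activin-binding follistatin gene (65.5, 25.0, 113 and 42.6 against 431, 327, 396 and 234 CPM), and CD74 of antigen presentation (16.4, 20.9, 52.3 and 23.1 against 147, 405, 149 and 869.9 CPM).

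The counts of list members that follow stand beside 20.5% above and 13.9% below in every goat over all genes at 20 CPM or more. The lists count every matched member, also those under 20 CPM, so the sets are not alike in level. For instance, 5 of 36 mesenchymal transcription factors and 3 of 36 WNT genes had no UMI in the gate. Steroid and nuclear receptors were often above. Of 17 in the list, 10 were above the other nuclei in every goat and 1 was below. RORA, a circadian and lipid-sensing receptor, was at 2732, 1398, 3165 and 1836 CPM, and the thyroid hormone receptor THRB at 501, 217, 636 and 499 CPM against a mean of 149 CPM elsewhere. The progesterone receptor PGR was at 118, 242, 185 and 123 CPM and the oestrogen receptor ESR1 at 534, 321, 536 and 424 CPM. PGR was above the other nuclei in 4 of 4 goats and ESR1 in 3. PPARG, the adipogenic receptor, was below them in every goat, at 108, 154, 92.6 and 213 CPM.

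Of 11 Hedgehog genes, 6 were above the other nuclei in every goat and 0 below. The ligand receptor PTCH1 was at 180.2, 129, 56.4 and 103 CPM, the signal transducer SMO at 75.4, 62.6, 80.5 and 46.2 CPM, the repressor SUFU at 72.1, 104, 68.5 and 90.6 CPM and the co-receptor CDON at 98.3, 108, 48.3 and 78.1 CPM. Of the effectors, GLI3 was at 409.5, 238, 330.2 and 323 CPM, while GLI1, itself induced by the pathway, had UMIs in Du'an goat 1 only (6.55, 0, 0 and 0 CPM). Of the 5 PDGF genes that the rule did not use, 3 were above in every goat. The ligand PDGFC was at 1648, 914, 592 and 1222 CPM, the ligand PDGFA at 9.83, 4.17, 4.03 and 26.6 CPM and the mural cell receptor PDGFRB at 36.0, 16.7, 28.2 and 7.10 CPM.

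Matrix genes outside the gate were often above the other nuclei. Of 40 interstitial matrix genes, 20 were above the other nuclei in every goat and 4 were below. COL6A1 was at 105, 87.6, 157 and 83.5 CPM, COL6A2 at 78.6, 54.2, 137 and 99.5 CPM and COL6A3 at 183, 75.1, 318 and 128 CPM, and in each of these chains Nubian goat 1 had the highest level. The metalloprotease inhibitor TIMP2 was at 446, 421, 362 and 428 CPM and differed little among goats, whereas the fibronectin gene FN1 ranged from 7.10 to 472 CPM (472, 300.4, 121 and 7.10 CPM). Of 20 basement membrane genes, 10 were above in every goat, including LAMB1 at 285, 179, 266 and 155 CPM, LAMA1 at 442, 309, 523 and 282 CPM and the linker protein gene NID2 at 167, 196, 177 and 139 CPM. COL4A3 and COL4A4 were below the other nuclei in every goat.

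Of 36 mesenchymal transcription factors, 17 were above the other nuclei in every goat and 6 were below. MEIS2, a homeobox cofactor, was at 1127, 951, 958 and 1133 CPM, and ZEB1, which represses epithelial genes, at 1539.8, 467, 854 and 785 CPM. Of 15 gonadal factors, 1 was below in every goat and 3 were above (WT1, RUNX2 and CYP11A1), which is close to the share over all genes. RUNX2 was above in the Du'an goats only with the deep nuclei, since members up to 10000 UMIs had 1032 and 392 CPM there and all other nuclei 3910 and 689 CPM. WT1, expressed in gonadal mesenchyme and in follicle cells, was at 206, 342, 173 and 339 CPM.

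The growth factor lists were close to the share over all genes. Of 29 TGF-beta and BMP genes, 6 were above the other nuclei in every goat and 5 were below. The BMP receptor BMPR1B, much studied for litter size in sheep, was at 2179, 1598, 1727 and 2110 CPM, above the other nuclei in 4 of 4 goats. Of 36 WNT genes, 8 were above and 6 below. The non-canonical ligand WNT5A was at 131, 33.4, 32.2 and 26.6 CPM, and its receptor ROR1 at 1677, 1639.6, 1707 and 1515 CPM was above the other nuclei in 2 of 4 goats. Of 16 IGF genes, 1 was below the other nuclei in every goat and 4 were above, among them IGF1 (52.4, 16.7, 52.3 and 39.1 CPM) and IGFBP7 (364, 542, 407 and 336 CPM). Of 13 FGF and HGF genes, 3 were above and 2 below, the former with FGF1 (318, 20.9, 213 and 206 CPM) and the stem cell factor receptor KIT (164, 146, 52.3 and 105 CPM). Of 13 complement genes, 5 were above and 2 below. Of 29 chemotaxis and guidance genes, 8 were above and 6 below, with SLIT2 at 180.2, 192, 217 and 146 CPM and the SLIT receptor ROBO2 at 2198, 3496, 4671 and 2090.4 CPM. Of 25 dystrophin complex and adhesion genes, 6 were above and 8 below, with delta-sarcoglycan (SGCD) at 482, 559, 737 and 803 CPM. Of 21 fibroblast genes outside the gate, 5 were above in every goat and 4 were below, and NEGR1 had 0 UMIs in Nubian goat 2. The fibroblast list summed to 4446, 3062, 3427 and 3911 CPM in the gate against 6177, 4742, 6021 and 5914 CPM elsewhere, lower in every goat.

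The next question was how the stromal gate differed from the other mesenchymal gates. Nuclei with 3 or more of the 7 smooth muscle genes and at most 3 of the 9 matrix genes formed a contractile gate (253, 60, 274 and 172 nuclei), and nuclei with 5 or more of the matrix genes and at most 1 smooth muscle gene a collagen gate (27, 39, 188 and 21 nuclei). Neither could have a UMI of FSHR, PECAM1 or PROX1. UMI sums per gate and goat were compared with edgeR's quasi-likelihood test with the goat as a block, after all gate genes were removed, and p-values were adjusted by Benjamini-Hochberg over all genes tested. The gates were drawn from the same nuclei on related genes, so a gene expressed together with gate genes is not independent of the rule. These p-values describe how alike the goats were in a difference, and are no independent evidence that the classes differ. Each goat gave 1 sum per gate.

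Against the contractile gate, 324 of 6628 genes (4.89%) were called, 22 higher in the stromal gate (0.332%) and 302 lower (4.56%). Of 21 tested contractile genes that no gate used, 11 were lower and 0 higher, with a median log2 fold change of -1.25 beside 0.01 over all genes. Against all other nuclei, 10 of the 22 genes of this list were above in every goat and 3 below, beside 20.5% and 13.9% over all genes at 20 CPM or more. The list summed to 8472, 5920, 8560 and 7090 CPM in the stromal gate and 6079, 3943, 4534 and 4327 CPM in all other nuclei. It was thus low beside the contractile gate only. TPM2, a tropomyosin of smooth muscle, was at 75.4, 20.9, 105 and 40.8 CPM in the stromal gate and 356, 392, 371 and 291 CPM in the contractile gate (log2 fold change -2.70 ± 0.40 SE, adjusted p = 0.00428, edgeR). The groups did not overlap. The myosin light chain kinase MYLK was at 298, 159, 475 and 206 against 1045, 378, 1112 and 404 CPM (log2 fold change -1.39 ± 0.35 SE, adjusted p = 0.0349, edgeR), lower in 4 of 4 goats, although Nubian goat 1 of the stromal gate lay above Du'an goat 2 and Nubian goat 2 of the contractile gate. The actin cross-linker FLNA was at 91.7, 62.6, 117 and 87.0 against 279, 424, 317 and 279 CPM (log2 fold change -1.93 ± 0.31 SE), and the adhesion protein VCL at 269, 279.5, 346 and 163 against 1401, 576, 1003 and 550.1 CPM (-1.77 ± 0.32 SE). SYNPO2, TPM1, MYL6, MYL9, ACTN1, SMTN and PRUNE2 made up the rest of the 11. CALD1, another actin-binding protein, was not called (log2 fold change -0.85 ± 0.34 SE, adjusted p = 0.219, edgeR). Without Du'an goat 1, Du'an goat 2 or Nubian goat 2, 3 of the 21 were lower, and 9 without Nubian goat 1.

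Outside that list, the transcripts called lower were led by the crystallin gene CRYBB1, with 0 of 1356326 UMIs in the stromal gate and 108 UMIs in the contractile gate, which is at least 24.8-fold lower when set against a floor of 3 counts over the group. PPP1R14A, which inhibits myosin phosphatase, was at 0, 4.17, 0 and 0 against 45.4, 60.0, 38.2 and 17.9 CPM, with 1 UMI against 74 (ratio 51.1, counting interval 8.88 to 2044). XIRP1, an actin-binding muscle protein gene, at 3.28, 12.5, 0 and 5.33 against 17.4, 208, 14.6 and 76.8 CPM. TMSB10, which binds actin monomers, was at 52.4, 91.8, 145 and 316 against 555, 2141, 635 and 5379.7 CPM (log2 fold change -3.76 ± 0.55 SE, adjusted p = 0.00428, edgeR), with both gates highest in Nubian goat 2. CISD3, TUBB2A, CITED4 and MUSTN1 were the others named by size. Also lower were the metalloprotease inhibitors TIMP1 (-3.44 on the log2 scale) and TIMP3 (-2.54), the IGF-binding proteins IGFBP5 (-2.13) and IGFBP6, vimentin (VIM, -2.22), integrin beta 1 (ITGB1, -1.46) and the chaperone HSPA8 (-1.96). KRT18, a keratin of simple epithelia, was at 0, 0, 0 and 17.8 against 89.0, 1201, 0 and 384 CPM, so that its UMIs lay in contractile nuclei of 3 goats.

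IL33, an alarmin cytokine stored in nuclei, was higher in the stromal gate in 4 of 4 goats, at 55.7, 58.4, 52.3 and 21.3 CPM against 6.98, 3.53, 7.28 and 1.79 CPM (log2 fold change 3.04 ± 0.41 SE, adjusted p = 0.00428, edgeR). It held its call under all 14 alternatives that gave a value. The calcium-regulating hormone gene STC1 was at 52.4, 41.7, 48.3 and 19.5 against 3.49, 7.06, 5.46 and 3.57 CPM (log2 fold change 2.87 ± 0.64 SE, adjusted p = 0.0208, edgeR). The scaffold gene IQGAP2 was at 206, 188, 221 and 282 against 69.8, 63.6, 85.5 and 98.2 CPM, a modest difference with little spread (log2 fold change 1.39 ± 0.22 SE, adjusted p = 0.00551, edgeR). KCNIP1, a potassium channel subunit, was at 452, 743, 378 and 531 against 83.7, 247, 287 and 51.8 CPM, and Nubian goat 1 showed the smallest gap. PTPRN2, RGMA, HECW1, PIK3R3, SLC1A3, LIMCH1, DNAH7, RAPGEF4, SAMD12, GRAMD1B and GPR39 were also called, with log2 fold changes from 1.24 to 2.56. Of the lists, the basement membrane chain COL4A4 (1.13) and the helix-loop-helix factor TCF4 (0.74) were higher. No Hedgehog gene, PDGF gene or nuclear receptor passed the test in either direction. Without nuclei over 10000 UMIs, 30 of 5268 genes were higher (12 of them shared with the 22) and 190 lower (153 shared with the 302). Of the 21 contractile genes, 11 were lower again, while RGMA, HECW1, GRAMD1B, GPR39 and MUSTN1 were not called.

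**Figure D3:**
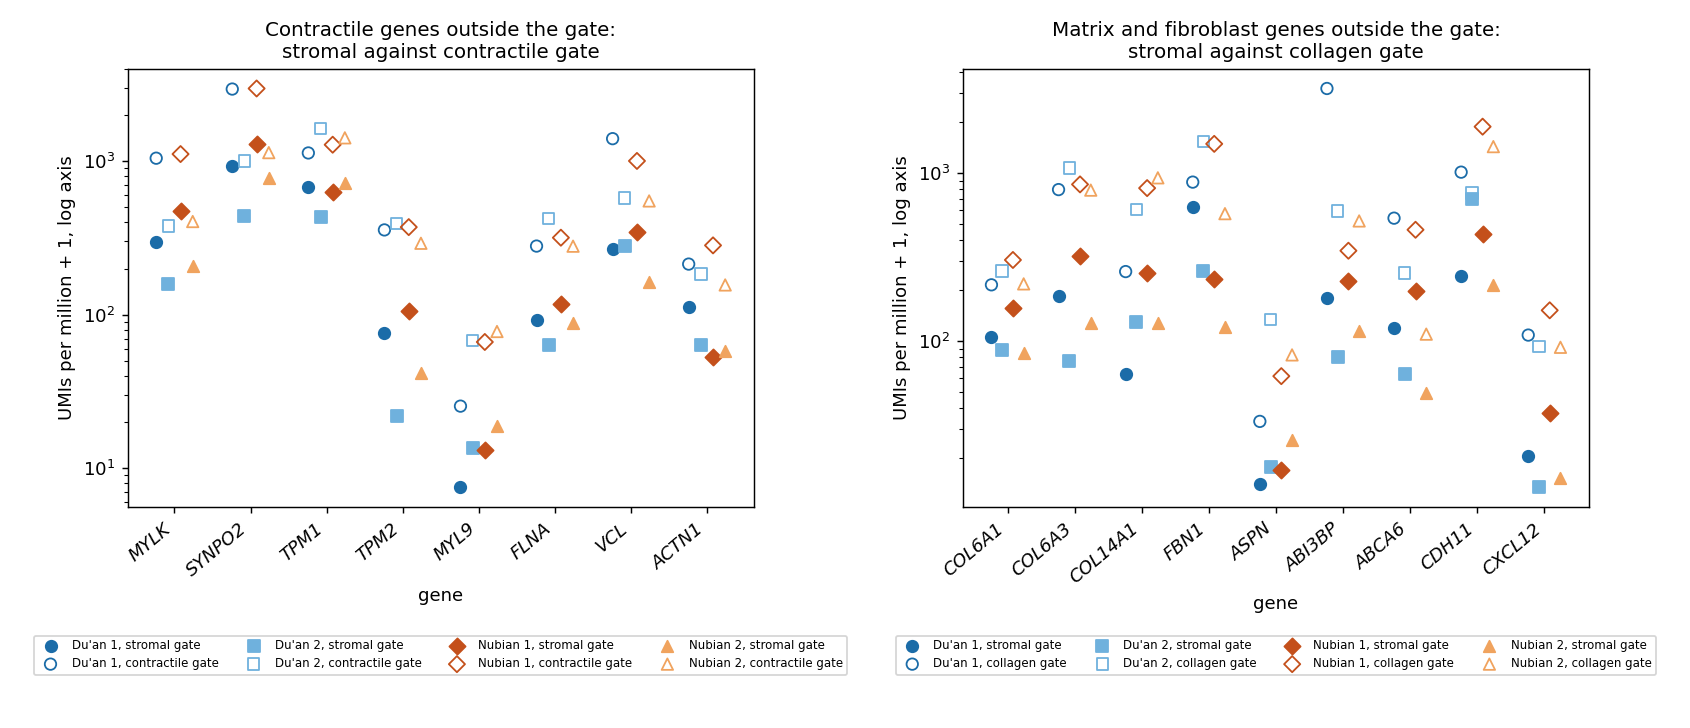
CPM + 1 (log axis), 1 point per goat, filled for the stromal gate and open for the contractile gate (left) or collagen gate (right). Each open point lies above the filled point of the same goat for TPM2, FLNA and VCL on the left and for COL6A1, COL6A3 and COL14A1 on the right.

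Against the collagen gate, 41 of 6628 genes (0.619%) were called, 19 higher (0.287%) and 22 lower (0.332%). Interstitial matrix genes that no gate used were the clearest group: 6 of 31 tested were lower and 0 higher, with a median log2 fold change of -1.58 beside 0.01 over all genes. Granulosa markers moved the other way in this contrast, with 9 of 10 tested above 0, 1 called and a median of 1.01. Their part in it was not tested. COL6A3 was at 183, 75.1, 318 and 128 CPM in the stromal gate and 795, 1071, 854 and 789.6 CPM in the collagen gate (log2 fold change -2.39 ± 0.43 SE, adjusted p = 0.0261, edgeR), and the groups did not overlap. COL14A1, a fibril-associated collagen, was at 62.2, 129, 254 and 128 against 258, 606, 812 and 935 CPM (log2 fold change -2.26 ± 0.38 SE, adjusted p = 0.0222, edgeR). FBN1, the fibrillin of microfibrils, was at 629, 259, 234 and 121 against 881, 1536, 1489 and 572 CPM (log2 fold change -1.95 ± 0.38 SE, adjusted p = 0.0428, edgeR), where Du'an goat 1 of the stromal gate overlapped Nubian goat 2 of the collagen gate. COL6A1 (-1.24), ASPN (-2.01) and ABI3BP (-2.56) were the other 3. ABI3BP, a matrix-binding protein gene, was at 3182, 592, 344 and 517 CPM in the collagen gate, so Du'an goat 1 set much of that difference. The count of lower matrix genes was 0 without Nubian goat 2, 1 without Du'an goat 1 or without Du'an goat 2, and 5 without Nubian goat 1. Without members of mixed markers, which leaves out Du'an goat 2 with 15 nuclei, it was 1 of 22 tested.

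Beyond the matrix, GPR39, a zinc-sensing receptor, was at 68.8, 113, 72.5 and 159.8 CPM against 527, 881, 793 and 653 CPM in the collagen gate (log2 fold change -2.86 ± 0.29 SE, adjusted p = 0.00122, edgeR) and held its call under all 16 alternatives. The groups did not overlap. The same gene was higher in the stromal than in the contractile gate. COL11A1 (49.1, 12.5, 72.5 and 24.9 against 150.5, 254, 319.6 and 635 CPM), the integrin ITGA11, the mechanosensitive channel PIEZO2 (98.3, 41.7, 36.2 and 17.8 against 473, 119.8, 337 and 245 CPM), KIAA1755, DTX1 and GAS7 were also lower. Of the fibroblast list, ABCA6 (-1.67) and the mesenchymal cadherin CDH11 (-1.83) were lower, as was the chemokine CXCL12, at 19.7, 12.5, 36.2 and 14.2 against 107, 91.6, 151 and 90.8 CPM (log2 fold change -2.44 ± 0.37 SE, adjusted p = 0.017, edgeR).

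Genes called higher than in the collagen gate included HECW1, a ubiquitin ligase gene, at 26.2, 434, 20.1 and 53.3 CPM against 0, 0, 1.41 and 0 CPM (adjusted p = 0.00359, edgeR), that is 147 UMIs against 1, and Du'an goat 2 was far above the others in the stromal gate. The ratio of pooled levels was 114, with a 95% counting interval of 20.2 to 4535. STC1 was at 52.4, 41.7, 48.3 and 19.5 against 0, 0, 0 and 9.08 CPM, with 49 UMIs against 1 (ratio 38.0, counting interval 6.51 to 1532). RIMS1, a synaptic vesicle scaffold gene, was at 167, 41.7, 145 and 95.9 against 32.2, 0, 18.4 and 27.2 CPM, and MME, which encodes a neutral endopeptidase, at 55.7, 150.2, 44.3 and 105 against 10.7, 7.04, 7.07 and 0 CPM (log2 fold change 3.51 ± 0.63 SE, adjusted p = 0.0261, edgeR). HMGA2, a chromatin-binding protein gene, was at 799, 150.2, 161 and 410.3 against 64.5, 28.2, 52.3 and 36.3 CPM. PALMD and MAP7 had 101 and 74 UMIs against 2 each. CLSTN2, CTNNA2, C10H14orf37, TMEM200A, KIAA1324L, PPP1R9A, PDE8B and the vasodilator peptide gene ADM completed the set, with log2 fold changes from 1.31 to 2.40. TMEM200A stands in the granulosa list, where it was 1 of 10 tested members called. Most HMGA2 and CTNNA2 UMIs of Du'an goat 1 lay in its deep nuclei, 234 of 244 HMGA2 UMIs and 383 of 476 CTNNA2 UMIs. Without nuclei over 10000 UMIs, 9 of 5268 genes were higher and 34 lower, and 7 of 29 matrix genes were lower. Of the 15 named higher genes, 10 were then not called (PALMD, MME, HMGA2, CLSTN2, CTNNA2, TMEM200A, KIAA1324L, PPP1R9A, PDE8B and ADM).

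**Figure D4:**
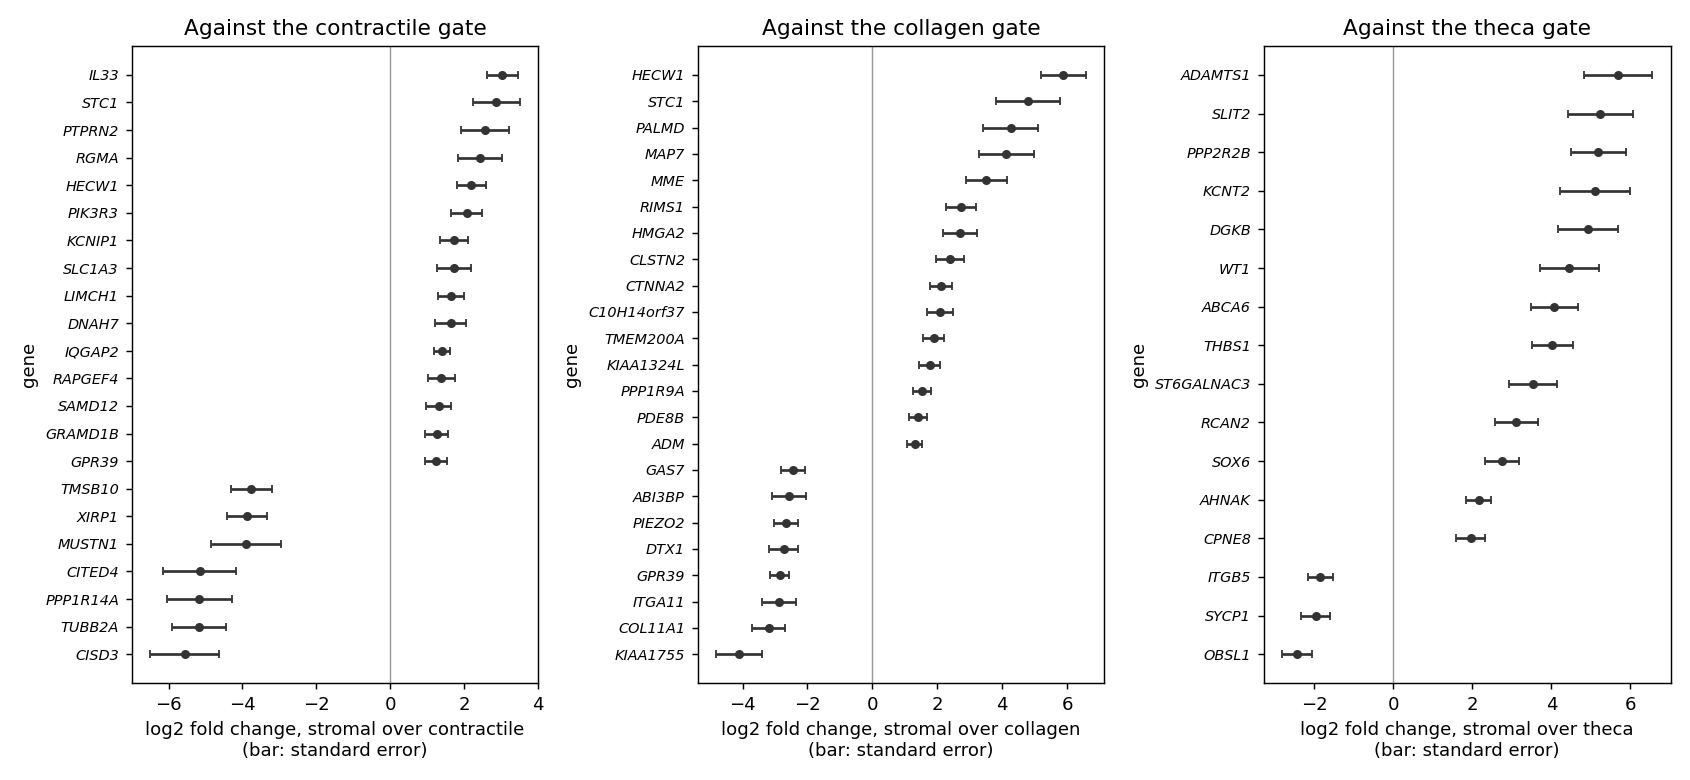
Log2 fold changes with standard errors (edgeR) of the genes named by rule against the contractile, collagen and theca gates, with stromal-higher values to the right of 0. CRYBB1 and ATP10A, at 0 UMIs in 1 of the gates, are left out.

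Nuclei with 3 or more of CYP17A1, CYP11A1, STAR, LHCGR, PTCH1, HHIP and INSL3 and at most 1 smooth muscle gene, and with no UMI of FSHR, PECAM1 or PROX1, numbered 7, 47, 32 and 24. Those that also met another of these gates were left out, among them 2, 8, 2 and 6 members of the stromal gate, so that the theca gate held 5, 36, 29 and 18 nuclei. Only Du'an goat 2 and Nubian goat 1 then reached the 20 nuclei set for a sum, so all theca sums come from these 2 goats. The fit also held the sums of the other gates in every goat, and these enter the p-values. Against the theca gate, 18 of 6628 genes (0.272%) were called, 15 higher in the stromal gate (0.226%) and 3 lower (0.0453%). Without Du'an goat 1, which has no theca sum, 6 were higher and 0 lower. The values that follow are those of Du'an goat 2 and Nubian goat 1. The axon guidance ligand SLIT2 was at 192 and 217 CPM in the stromal gate and 4.60 and 7.04 CPM in the theca gate, with 100 UMIs against 2 (ratio 36.8, 95% counting interval 9.94 to 308, adjusted p = 0.0175, edgeR). The matrix glycoprotein THBS1 was at 317 and 475 against 36.8 and 14.1 CPM (log2 fold change 4.02 ± 0.52 SE, adjusted p = 0.0153, edgeR), and WT1 at 342 and 173 against 9.19 and 14.1 CPM. The proteoglycan-cleaving protease ADAMTS1, known for its rise at ovulation, was at 284 and 415 against 9.19 and 0 CPM, with 171 UMIs against 2. ATP10A had 0 UMIs in the theca gate and was at least 18.7-fold higher in the stromal gate against a floor of 3 counts over the group. PPP2R2B, KCNT2, DGKB, ABCA6, ST6GALNAC3, RCAN2, SOX6, AHNAK and CPNE8 were higher as well. OBSL1, SYCP1 and the integrin ITGB5 were lower, ITGB5 at 217 and 225 against 418 and 1084 CPM. With all members, granulosa markers had a median log2 fold change of -1.65 beside 0.05 over all genes, with 1 of 10 tested above 0 and 0 called. Without nuclei over 10000 UMIs the counts were 175 higher and 118 lower of 5268 genes, including all 15 and all 3. Of 10 granulosa markers, 7 were then lower in the stromal gate (CYP19A1, INHBA, INHBB, SERPINE2, NR5A2, CHST8 and TMEM200A). Granulosa transcripts thus moved with this contrast and their part in it was not tested.

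As a description across 6657 genes, the log2 CPM profile of the stromal gate correlated with that of the contractile gate at Pearson's r of 0.877, 0.717, 0.911 and 0.820 within the 4 goats, with the collagen gate at 0.816, 0.733, 0.884 and 0.712 and with the granulosa nuclei at 0.818, 0.786, 0.844 and 0.788. Each pair shares its library, and genes are not independent replicates. The endothelial nuclei stood at 0.765, 0.766, 0.819 and 0.680, and the theca gate at 0.802 in Du'an goat 2 and 0.778 in Nubian goat 1. The contractile gate was the highest of those compared in Du'an goat 1 and both Nubian goats, and the theca gate in Du'an goat 2. The sums differ in depth, in Du'an goat 2 from 141961 UMIs in the collagen gate to 39591392 UMIs in granulosa nuclei, and the part of depth in r was not tested.

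The share of nuclei in the stromal gate was compared between breeds. It was 1.20% in Du'an goat 1 (95% exact binomial interval 0.986 to 1.44), 0.487% in Du'an goat 2 (0.365 to 0.636), 0.759% in Nubian goat 1 (0.634 to 0.902) and 1.61% in Nubian goat 2 (1.39 to 1.87), intervals that cover counting error only. Nubian minus Du'an was 0.346 percentage points (two-sided exact permutation test, p = 0.6667, with 0.3333 the smallest p that 2 against 2 allow). The breeds overlapped, and the difference was -0.00914 points without Du'an goat 2 and -0.0820 points without Nubian goat 2. With each nucleus thinned to 1000 UMIs and shallower nuclei left out, the shares were 1.02%, 0.313%, 0.932% and 0.930%. Among nuclei of 1000 UMIs or more, thinning took the members from 85, 45, 110 and 124 to 69, 30, 127 and 74. Thinning removes UMIs of the exclusion genes as well as of the stromal genes. The part of depth alone in the shares was therefore not tested.

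By breed, none of 5051 genes passed in the stromal gate (0%) with edgeR's quasi-likelihood test, against 129 genes at an unadjusted p under 0.05 (2.55%) and 2 called by DESeq2. The goats of the breeds did not overlap for 1390 genes (27.5%), 657 higher in Nubian (13%) and 733 lower (14.5%). The 10 genes given here missed the threshold. NELL1, a secreted osteogenic protein gene, was at 256, 154, 4.03 and 5.33 CPM (log2 fold change -5.27 ± 0.54 SE, adjusted p = 0.593, edgeR), while it passed with DESeq2 (adjusted p = 0.000695). KCNB2, a potassium channel gene, was at 717, 338, 44.3 and 90.6 CPM (log2 fold change -2.89 ± 0.53 SE, adjusted p = 0.999, edgeR, and 0.0246 with DESeq2). Both were high in the Du'an goats, but 110 of the 119 NELL1 UMIs came from deep nuclei of these goats. In nuclei up to 10000 UMIs, NELL1 was at 25.7, 0, 4.20 and 8.81 CPM and KCNB2 at 149, 497, 46.2 and 52.9 CPM, so that Du'an goat 2 was at 0 for NELL1. PTPRT, RFFL and TENM4 were the other 3 lower in the Nubian goats, and TENM4 had a log2 fold change of -1.35 with all nuclei and 0.10 without nuclei over 10000 UMIs. Across alternatives the log2 fold change of PTPRT reached 0.47 and that of RFFL 2.38, so their direction turned as well. Higher in the Nubian goats were CSMD1 (22.9, 12.5, 101 and 128 CPM), the calcification inhibitor MGP (36.0, 20.9, 125 and 105 CPM), the microtubule-associated ubiquitin ligase MID1 (138, 108, 427 and 293 CPM), PPDPF and the ephrin receptor EPHB1. These 5 had adjusted p-values of 0.999 in edgeR. With no filter beyond 1 count, CSMD1 (adjusted p = 0.00821), PPDPF (0.00924) and EPHB1 (0.0256) passed among the higher genes and NELL1, KCNB2, PTPRT and RFFL among the lower ones, also with edgeR. The counts of list members that follow stand beside the 13% higher and 14.5% lower over all genes. They are a description, and no test compared the lists. Without overlap of the goats, 5 of 13 tested nuclear receptors were higher in the Nubian goats and 0 lower, 0 of 7 Hedgehog genes were higher and 2 lower, 1 of 10 WNT genes was higher and 3 lower, and 3 of 20 interstitial matrix genes were higher and 2 lower. Of 18 TGF-beta and BMP genes, 3 were higher and 3 lower, as were 3 and 3 of 18 chemotaxis and guidance genes. Of 16 mesenchymal transcription factors, 3 were higher and 1 lower. Each of the other lists with 10 or more tested genes had 1 to 3 genes higher and 0 to 2 lower. As a sum, the nuclear receptor list was at 5239, 3267, 6112 and 4353 CPM with all members. In nuclei up to 10000 UMIs it was at 6759, 3790, 6290 and 5377 CPM, and the breeds overlapped in both.

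Whether the difference between breeds was itself different in the stromal and contractile gates was tested as an interaction: 0 of 7827 genes (0%) passed in edgeR, with 252 at an unadjusted p under 0.05 (3.22%) and 1 called by DESeq2. Leaving out Du'an goat 1 gave 73 calls, Du'an goat 2 39 and Nubian goat 1 4.

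The study names 14 genes as shared by 4 cell types (internal and external theca, granulosa and vascular endothelium), an overlap drawn without stromal cells. None of these genes passed by breed in the stromal gate with edgeR and the filter on low counts. With no filter beyond 1 count, ATP6 (adjusted p = 0.000171), COX2 (4.53e-05) and FAM19A2 (0.00136) passed, also with edgeR. Without members of mixed markers, where Du'an goat 1 alone stands for its breed, MFGE8 passed (adjusted p = 0.0086). SERPINE2 is one of the granulosa markers by which those members were left out, so its value there is not read. ROBO1, a SLIT receptor, was at 393, 772, 1228 and 433 CPM, the lipid phosphatase PLPP3 at 246, 488, 487 and 494 CPM, the adhesion molecule IGSF11 at 138, 154, 499 and 159.8 CPM and the inhibin subunit INHA at 13.1, 45.9, 205 and 5.33 CPM. The aromatase gene CYP19A1, at 6.55, 263, 306 and 23.1 CPM, was high in the same goats as the granulosa markers above. The other 7 besides the mitochondrial pair named next were SERPINE2, LRP8, FAM19A2, TMEM200A, C22H3orf67, MFGE8 and LOC102174170.

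Among mitochondrially encoded genes, COX2 was at 776, 4.17, 3692 and 1289 CPM and ATP6 at 1586, 4.17, 7071 and 3366 CPM in the stromal gate, with 1 UMI of each in Du'an goat 2. ATP8 was at 13.1, 0, 44.3 and 12.4 CPM. The same 3 genes were at 2.09, 1.96 and 0 CPM in all other nuclei of Du'an goat 2, so the near absence was shared by the whole library. The other 10 mitochondrially encoded genes did not show it: COX1 was at 239, 759, 1550.2 and 474 CPM, COX3 at 3083, 9954, 14278 and 6701 CPM and CYTB at 2005, 5119, 10654 and 4255 CPM. COX2 and ATP6 thus set Du'an goat 2 apart from the other 3 goats, beside log2 fold changes by breed of 2.72 ± 1.61 SE and 2.76 ± 1.79 SE, which passed only with no filter beyond 1 count. Another feature, LOC106503794, was highest in Du'an goat 2. It was at 1238, 11723, 5508 and 2946 CPM in the stromal gate and 1301, 10461, 2229 and 3234 CPM in all other nuclei. Its relation to the near absence of COX2, ATP6 and ATP8 was not tested. The 13 genes summed to 11280, 25298, 55164 and 23178 CPM in the stromal gate, highest in Nubian goat 1, where the single deep nucleus held 4.10% of the UMIs.

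**Figure D5:**
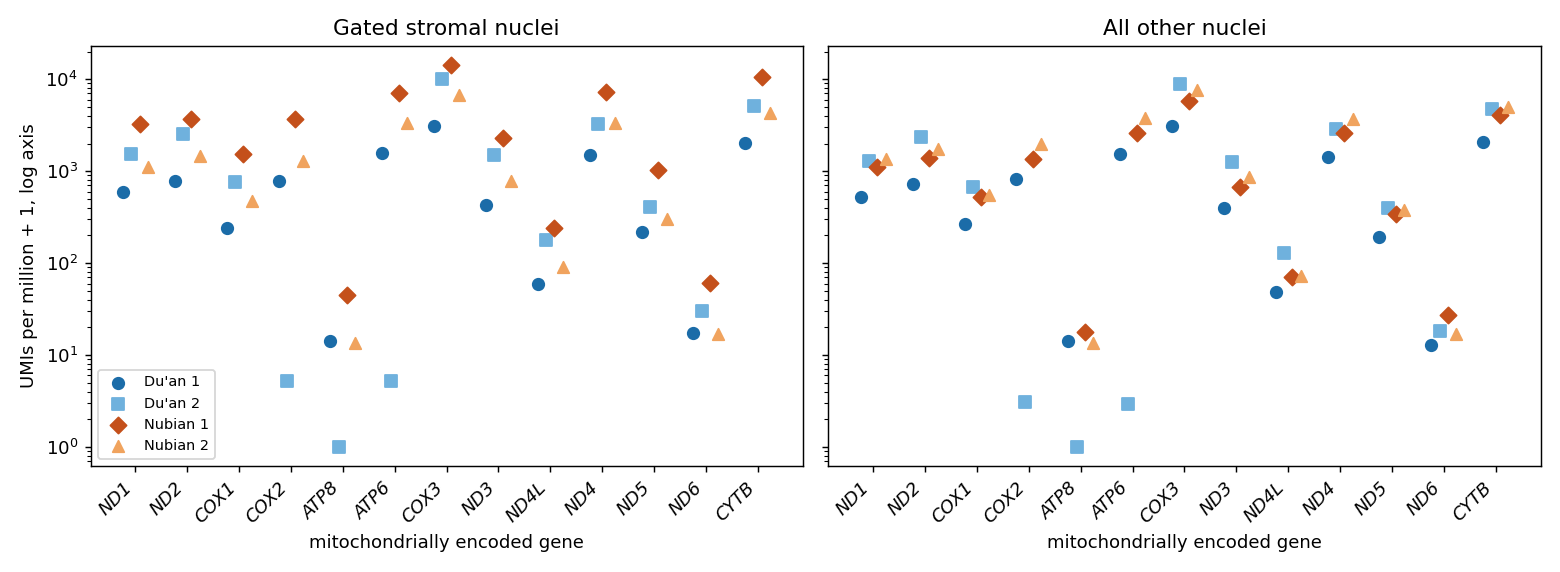
CPM + 1 (log axis) of the 13 mitochondrially encoded genes in the stromal gate (left) and in all other nuclei (right), 1 point per goat. Du'an goat 2 lies at or near 0 for COX2, ATP8 and ATP6 in both panels and not for the remaining 10.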

How the data were processed

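Nuclei from 4 goat ovaries were profiled by 3′ single-nucleus RNA sequencing (10x Genomics). The authors deposited 1 filtered matrix of raw UMI counts per goat with 28944 features, made with Cell Ranger, given as 5.0.0 in the submitters' processing notes and as 3.1.0 in the matrix header, and named Seurat for later steps. Features kept the names in the files, and CYP17A1 and CYP11A1 were matched through RefSeq synonyms. Libraries held 40573246, 60566681, 71613892 and 52783453 UMIs. No doublet caller was run and free RNA was not removed.

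Counts were summed per gate and goat where a gate held 20 or more nuclei. With edgeR 4.0.16 (R 4.3.3), sums were scaled by trimmed mean of M values, filtered on low counts (filterByExpr), fitted in one quasi-likelihood model over all gates with the goat as a block for gate comparisons, and without it for breed. Adjusted p-values under 0.05 were called. The pairing of gates is by animal. DESeq2 1.42.0, other filters, other gates and leaving out each goat were alternatives. Removal of shared barcodes, of members with mixed markers and of nuclei over 10000 UMIs, and thinning to 500 UMIs, were chosen after seeing the data. Scripts ran in Python 3.11.15 and were tested on simulated data. The goats are separate animals. For breed, p-values measure the spread between them. For gate comparisons, with the goat as a block, they measure the spread among goats in the differences between gates.

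The genes named are all gate genes, 14 genes the study names for several cell types, for breed the 5 smallest p in each direction at 20 CPM or more without overlap of goats, for gate comparisons the 15 largest higher and 8 largest lower calls at 20 CPM or more with the same direction in every goat, and for each gene list its most abundant and most changed members. Other list members, ENPP1, ANKH and the limit of 10000 UMIs were chosen after their values were seen. The members and gene lists were chosen with earlier results of these data known. In all, 14 names of the lists matched no feature. Values of some list members are not reported here.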

Additional observations from a re-analysis of the deposited data

How the results depend on the processing

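Counts of calls moved with the processing, and the cause was not tested. By breed, 0 genes were called with all members, 2 with DESeq2, 87 with no filter beyond 1 count, 52 with 5 stromal genes required and 21 without members of mixed markers, and 0 under every other alternative, including the fit with a replicate block and each goat left out. Du'an goat 2 kept 3 nuclei with 5 genes required and 15 without mixed markers, under the 20 set for a sum. The breed counts of these settings thus rest on Du'an goat 1 alone, and the contractile and collagen comparisons on 3 goats. The theca comparison, with theca sums of Du'an goat 2 and Nubian goat 1 only, lacks the stromal sum of Du'an goat 2 when 5 genes are required. With stricter exclusions Nubian goat 1 kept 19 nuclei, so Nubian goat 2 alone stands for its breed in that setting. Where 1 goat stands for a breed it is assumed to vary like the others. The replicate numbers pair different animals across breeds (correlation of deviations 0.255 for each pair). Against the contractile gate, 22 higher and 302 lower calls became 183 and 649 with no filter, 2 and 8 with no replicate block, 9 and 161 with the study's filters, 2 and 66 with 5 genes required, 4 and 103 without mixed markers and 6 and 90 with nuclei thinned to 500 UMIs. Higher calls were 46 with only these gates in the fit, and lower calls 190 without nuclei over 10000 UMIs. With each goat left out, higher calls ranged from 4 (without Du'an goat 2) to 50 (without Nubian goat 1) and lower calls from 74 to 400. Against the collagen gate, 19 higher and 22 lower calls became 81 and 113 with DESeq2, 254 and 204 with no filter, 0 and 1 with no replicate block, 0 and 5 with only these gates in the fit, 0 and 2 with 5 genes required, 9 and 34 without nuclei over 10000 UMIs and 1 and 8 without mixed markers. Higher calls were 30 with library size alone, 12 with the study's filters and 3 after thinning. With each goat left out, higher calls ranged from 1 to 52 and lower calls from 1 to 34, highest without Nubian goat 1. Against the theca gate, 15 higher and 3 lower calls became 82 and 43 with DESeq2, 261 and 76 with no filter, 3 and 0 with no replicate block, 88 and 44 with the study's filters, 0 and 0 with 5 genes required, 175 and 118 without nuclei over 10000 UMIs and 37 and 27 after thinning. Lower calls were 0 with only these gates in the fit, and each goat left out gave 0 to 16 higher and 0 to 4 lower. Removal of mixed markers was not run there because too few theca nuclei remained. The interaction gave 1 call with DESeq2, 4 with no filter, 8 without mixed markers and 0 to 73 with a goat left out. The breed difference in share, 0.346 points, was -0.00914 without Du'an goat 2 and -0.0820 without Nubian goat 2, and at most 0.773. Of the named genes called in a gate comparison, KIAA1324L against the collagen gate reversed to -0.10 on the log2 scale without mixed markers. Of the other values of these genes under alternatives, 170 kept their side of the threshold and 164 lost the call against the collagen gate, 194 and 111 against the contractile gate and 152 and 101 against the theca gate. By breed, log2 fold changes took both signs across alternatives for PTPRT (-3.05 to 0.47), RFFL (-2.57 to 2.38) and TENM4 (-1.54 to 0.65). The genes the study names for several cell types did so as well, except ATP6, COX2, PLPP3 and MFGE8.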

Other observations

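Cycling markers were low in the stromal gate, with a sum of 115, 33.4, 84.6 and 224 CPM against 334, 396, 712 and 423 CPM in all other nuclei, and all 9 were below the other nuclei in every goat. Pericyte markers summed to 42.6, 12.5, 105 and 90.6 CPM in the gate, against 30.6, 15, 29.3 and 33.8 CPM. Immediate early and stress genes summed to 868, 705, 568 and 1941 CPM against 637, 814, 439 and 1616 CPM. Of the 11, 2 were above and 2 below the other nuclei in every goat, close to the share over all genes. Of 10 oocyte genes, 7 had no UMI in the gated nuclei. RUNX2, which was high in the deep nuclei of the stromal gate, was at 3698, 2928, 924 and 1393 CPM in the contractile gate and 2533, 462, 615 and 882 CPM in granulosa nuclei. In the few nuclei of the theca gate it was at 8076, 2951, 2021 and 1242 CPM, above the stromal gate in every goat but Nubian goat 2. In the collagen gate it was at 1752, 895, 1342 and 762 CPM.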
